A study of Rattus norvegicus with 12 samples.

Results

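The 2 by 2 design asked whether the uterine response to 17β-estradiol (E2) differs with the protein a rat eats. All 12 libraries of the series entered, 3 in each of 4 groups, and the quantity followed for every gene was the interaction, the E2 effect in soy-fed rats minus the E2 effect in casein-fed rats. Of 16493 gene symbols in the deposited tables, the 10279 reaching 1 FPKM (fragments per kilobase of transcript, scaled to the mapped total of the library) in 3 or more libraries were tested. FPKM is a level per unit of transcript length. Effects are differences of log2(FPKM + 1), so that a value of 1 is a doubling, and the added 1 makes changes of low genes look smaller than they are. A positive interaction means that the E2 effect lay further in the upward direction on soy, which is either a larger rise or a smaller fall.

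All rats were female Sprague-Dawley, ovariectomized on postnatal day (PND) 50 and killed on PND 65. CAS rats ate a casein diet from PND 30 and received vehicle, and CAS-E2 rats ate the same diet and received 5 µg/kg/d E2 from an osmotic pump. SPI rats ate the diet with soy protein isolate in place of casein and received vehicle, and SPI-E2 rats ate soy and received the same E2 dose. Each library came from whole uterus and pooled equal RNA of 2 uteri, so that the 3 libraries of a group are separate pools of animals. Libraries were run together by group, so an effect of the sequencing lane cannot be told apart from one of the group. In the paper's read summary, same-numbered CAS and SPI-E2 libraries had similar alignment rates and similar shares of over-represented sequences. The CAS-E2 and SPI libraries followed other patterns. The part of these read properties in the interaction was not tested.

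E2 acts in the uterus mainly through estrogen receptor alpha, a hormone-activated transcription factor of epithelium, stroma and muscle. Ovariectomy removes the ovarian source of the hormone and the uterus regresses; replacement brings back epithelial growth, secretion of luminal proteins and the entry of water and leukocytes. Soy protein isolate carries isoflavones such as genistein, plant compounds that can bind estrogen receptors. An interaction therefore measures whether E2 does something else, or something more or less, on top of a soy diet than on top of casein.

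The deposited coverage values implied between 6353210 and 9862180 mapped reads of 36 bases per library. One library stood apart from the others of its group, SPI-E2 1. Its log2 values differed from those of SPI-E2 2 and SPI-E2 3 with an SD of 0.68 across genes in both pairs, the largest among pairs of one group. For each E2-treated library, the E2 changes of all genes were regressed on the mean E2 effect measured in the other diet, which shares no library with it. The slopes were 0.87, 0.94 and 1.06 for CAS-E2 1 to 3, and 0.89 and 0.93 for SPI-E2 2 and 3, but 0.39 for SPI-E2 1. Why it differed cannot be told from the labels or the tables, and every SPI-E2 value below includes it unless stated otherwise. The main values are also given without it, which leaves 2 libraries in SPI-E2.

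With all 12 libraries, no gene passed an adjusted p of 0.05 for the interaction in limma's moderated test (0 of 10279, 0%). At an unadjusted p under 0.05, 1362 genes had a higher interaction (13.3% of those tested) and 168 a lower one (1.63%). This imbalance moved with the scaling of the libraries. Of the 10279 genes, 7244 had an interaction above 0, and 5298 after median-ratio scaling. The median interaction over all genes was 0.21, with quartiles of -0.05 and 0.44, and after scaling it was 0.01, with quartiles of -0.23 and 0.25. Without SPI-E2 1, and unscaled, it was 0.22. Scaling left 580 genes higher and 487 lower at an unadjusted p under 0.05, and again none past the adjusted threshold. With a replicate block over the E2 libraries, 2040 genes were higher and 302 lower at that unadjusted p, and none was called. When limma weighted each library by how closely it followed its group, 311 genes were called higher and 51 lower. The shift of the deposited values arose mostly on the side without E2, where the median SPI minus CAS difference over all genes was -0.16, against 0.04 for SPI-E2 minus CAS-E2. Interactions near 0.21 on the deposited scale therefore sat at the middle of the genes, and the scaled value is given beside those that matter.

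The absence of called genes has to be read with the width of the intervals. The 95% interval of a gene's interaction reached a median of 0.60 to either side, because an interaction adds the error of 4 groups: its median SE was 0.27, against 0.19 for the E2 effect within 1 diet. For 5911 genes (57.5%) the whole interval lay within a 2-fold difference in either direction. Of the 1144 genes that E2 changed over both diets, described below, this held for 210. For the other genes a 2-fold or larger diet difference in the E2 effect could neither be called nor be set aside.

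Within each diet the E2 response was large. In casein-fed rats 821 genes rose (7.99%) and 655 fell (6.37%), at an adjusted p under 0.05 and at least a 2-fold change. In soy-fed rats 862 rose (8.39%) and 191 fell (1.86%). With median-ratio scaling the counts were 907 and 539 on casein, and 707 and 279 on soy. Both diets called 729 genes, and all 729 went in the same direction. A further 747 genes were called on casein alone and 324 on soy alone, but 718 and 312 of these had the same sign in the other diet, and none had a called interaction. The test of the difference itself thus called no gene as responding in 1 diet alone.

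The count of falling genes on soy depended on single libraries. It was 191 with all of them, 456 without SPI-E2 1, 66 without SPI-E2 2, 62 without SPI-E2 3 and 112 without SPI 2. Without SPI-E2 1, 1284 genes rose and 456 fell in soy-fed rats, 981 genes were called in both diets, 515 on casein alone and 759 on soy alone. Of these, 22, 20 and 44 genes had a called interaction. Across genes, the E2 effects of the 2 diets, which share no library, had a Pearson r of 0.84 and a Spearman rho of 0.79. The total least squares slope of soy on casein was 0.86, and 1.08 without SPI-E2 1. Leaving out any other single library gave slopes between 0.76 (without SPI-E2 3) and 0.90 (without SPI 3), so the one library that took the slope above 1 was SPI-E2 1.

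**Figure D1:**
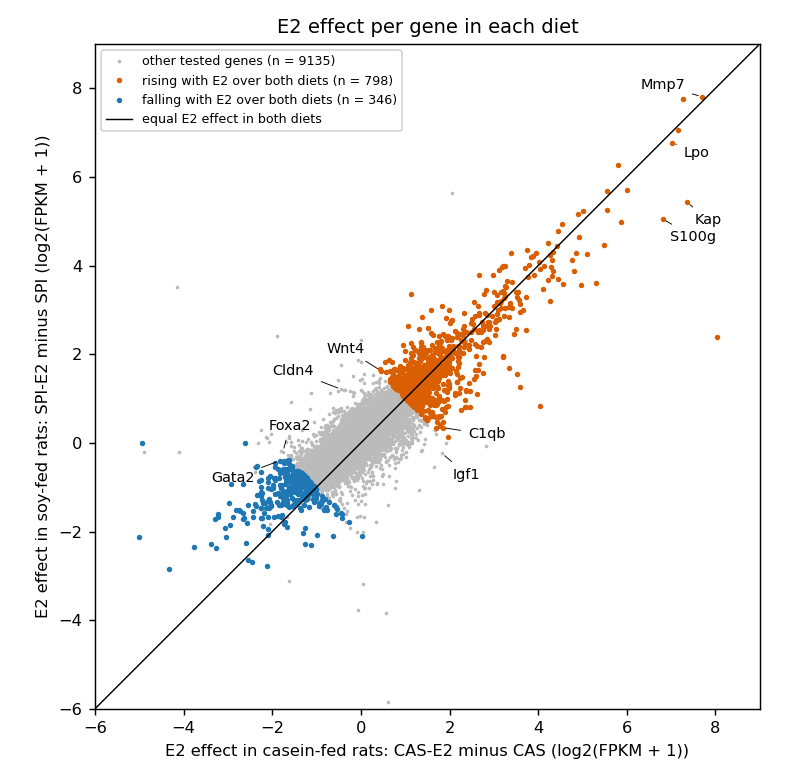
E2 effect of each of 10279 genes in casein-fed rats (horizontal, CAS-E2 minus CAS) and soy-fed rats (vertical, SPI-E2 minus SPI), as differences of log2(FPKM + 1). Orange points are the 798 genes that rose and blue points the 346 that fell with E2 over both diets; the line marks equal effects, and many blue points lie above it, where the fall was smaller on soy.

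The size of the response can be described on the genes that E2 changed over both diets, a contrast that is independent of the interaction when groups are of equal size. E2 raised 798 genes (7.76%) and lowered 346 (3.37%). Of these 1144 genes, 1142 had the same sign in both diets. The rising genes were split evenly, with 419 rising more on soy and 379 more on casein, and a median interaction of 0.03. The falling genes were not: 295 fell more on casein and 51 more on soy, with a median interaction of 0.56. After median-ratio scaling the split was 307 against 491 for the rising genes, and 82 on soy against 264 on casein for the falling genes.

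Again 1 library weighed on this. Relative to the mean of its own diet without E2, SPI-E2 1 had a median change of 0.87 in the rising genes, against 1.98 and 1.84 in SPI-E2 2 and 3 and 1.36 to 1.63 in the CAS-E2 libraries. In the falling genes its median change was -0.32, against -1.28 and -1.47 in SPI-E2 2 and 3 and -1.44 to -1.69 in CAS-E2. When the interaction of each gene was signed by its E2 direction, so that a negative value means a smaller response on soy, the median over the 1144 genes was -0.12. Without SPI-E2 1 it was 0.23, the opposite sign, but over the 1462 genes that E2 changed over both diets in that setting. The genes were thus chosen anew, and with groups of unequal size that choice is not independent of the interaction. Among these 1462 genes, 753 of 959 rising genes rose more on soy, and 170 of 503 falling genes fell more on soy.

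**Figure D2:**
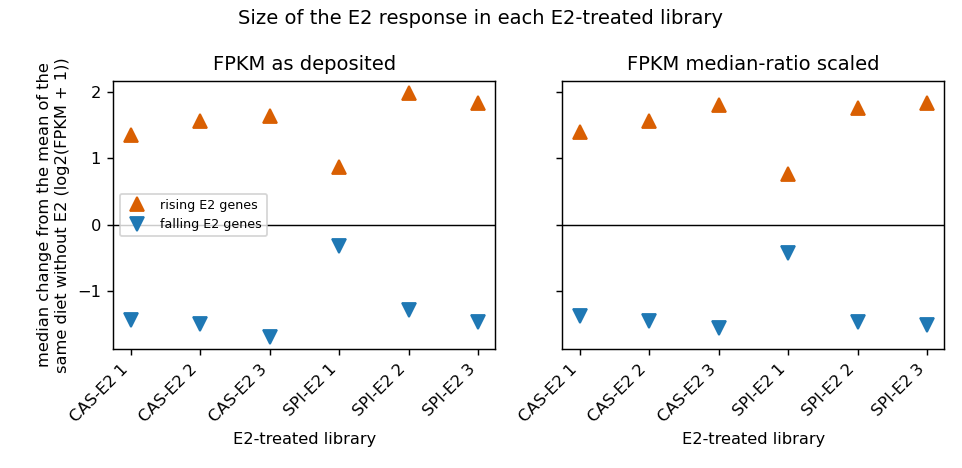
Median change of the rising (orange) and falling (blue) E2 genes in each of the 6 E2-treated libraries, relative to the mean of the same diet without E2, in log2(FPKM + 1) units, for deposited and for scaled FPKM. SPI-E2 1 lies closest to 0 in both directions and on both scales.

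The strongest E2-induced genes were secreted or luminal proteins of the uterine epithelium. All 16 tested members of the list of secreted epithelial proteins rose on casein and all 16 on soy, against 7.99% and 8.39% of all genes. The list was chosen with earlier results of these data known, so these counts only describe it. Members near 0 without E2, such as Reg3b, also passed the filter through the E2 libraries alone. None of the 16 had an unadjusted p under 0.05 for the interaction. Their median interaction was -0.19, or -0.32 scaled, against 0.21 and 0.01 for all genes. Without SPI-E2 1 the list's median was 0.44. The interval lay within 2-fold for 0 of the 16, so that equal induction in the 2 diets is not shown either.

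Mmp7 encodes matrilysin, an epithelial metalloprotease that processes matrix and antimicrobial peptides (rn4 chr8:4526018-4533730). Its FPKM was 15.4, 5.55 and 10.2 in CAS, 1461, 2000 and 3617 in CAS-E2, 7.53, 2.43 and 30.7 in SPI, and 796, 3670 and 3605 in SPI-E2. The E2-treated and untreated libraries were far apart in both diets, though the choice of the gene required that they not overlap. SPI-E2 1 was the lowest treated library. The E2 effect was 7.69 on casein and 7.81 on soy, with an interaction of 0.12 (95% interval -2.25 to 2.49), -0.09 scaled and 0.85 without SPI-E2 1. Even for this gene the interval spans more than 4-fold in either direction, because replicate values spread widely.

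Scgb1a1, the secretoglobin uteroglobin, went from 0.778 to 2.58 FPKM in CAS to 394 to 457 in CAS-E2, and from 0.403 to 3.57 in SPI to 159, 1029 and 811 in SPI-E2 1 to 3. Its interaction was 0.50 (-1.39 to 2.40), and 1.34 without SPI-E2 1. Lpo, lactoperoxidase, had an interaction of -0.26 (-1.55 to 1.04), and 0.21 without that library. The interaction of Olfm4, olfactomedin 4, was -0.30 (-1.41 to 0.80) with it and 0.22 without it. In Cuzd1, which was described as an estrogen-induced uterine gene, the values were -0.10 and 0.52. Lipf, a lipase, had 0.46, with an interval of -2.33 to 3.25, and 1.15 without the library. The sign of 3 of these genes, Lpo, Olfm4 and Cuzd1, thus turned when SPI-E2 1 was left out.

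Of the 8 largest rises, 2 had interactions well below 0 that remained uncalled. Kap, an androgen-regulated protein first known from kidney, measured 660, 1348 and 2176 FPKM in CAS-E2 and 342, 1058 and 1803 in SPI-E2, from 3.76 to 14.7 in CAS and 13.1 to 31.1 in SPI. Its interaction was -1.93 (-3.90 to 0.03, adjusted p = 0.345), and -1.26 without SPI-E2 1. S100g, the calcium-binding protein calbindin-D9k and a classical estrogen marker of rat uterus, measured 679, 1149 and 687 FPKM in CAS-E2 against 116, 482 and 513 in SPI-E2, and the treated groups did not overlap. Its interaction was -1.76 (-3.71 to 0.19, adjusted p = 0.378), and -1.06 without SPI-E2 1.

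The 8 largest falls were Clu, Gulo, the metallothioneins Mt1a and Mt2A, the glutathione transferases Gstm1, Gstm5 and Gstm7, and Igfbp3. They were chosen among genes with every E2 library below every library without E2, so a fall in both diets was fixed by the choice. Clu encodes clusterin, a secreted chaperone abundant in regressing tissue. It measured 225, 241 and 245 FPKM in CAS and 34.5, 25.6 and 16.1 in CAS-E2, against 126, 122 and 116 in SPI and 85.8, 28.3 and 21.4 in SPI-E2. The fall was 3.23 log2 units on casein and 1.66 on soy, with an interaction of 1.57 (0.31 to 2.83, adjusted p = 0.249) that was 0.98 without SPI-E2 1. Gulo, the last enzyme of vitamin C synthesis, had an interaction of 1.61 (0.26 to 2.96), and 0.93 without SPI-E2 1. Gstm5 had one of -0.10 (-0.94 to 0.73), and -0.46 without it. In Igfbp3, an insulin-like growth factor carrier, the interaction turned from 0.32 to -0.51. In Mt2A the 3 SPI-E2 libraries measured 287, 25.3 and 48.7 FPKM, and its interaction of 1.10 went to 0.10 without SPI-E2 1. Without that library the values of Gstm1, Gstm7 and Mt1a went from 1.21 to 0.58, from 1.42 to 0.59 and from 1.15 to 0.52.

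**Figure D3:**
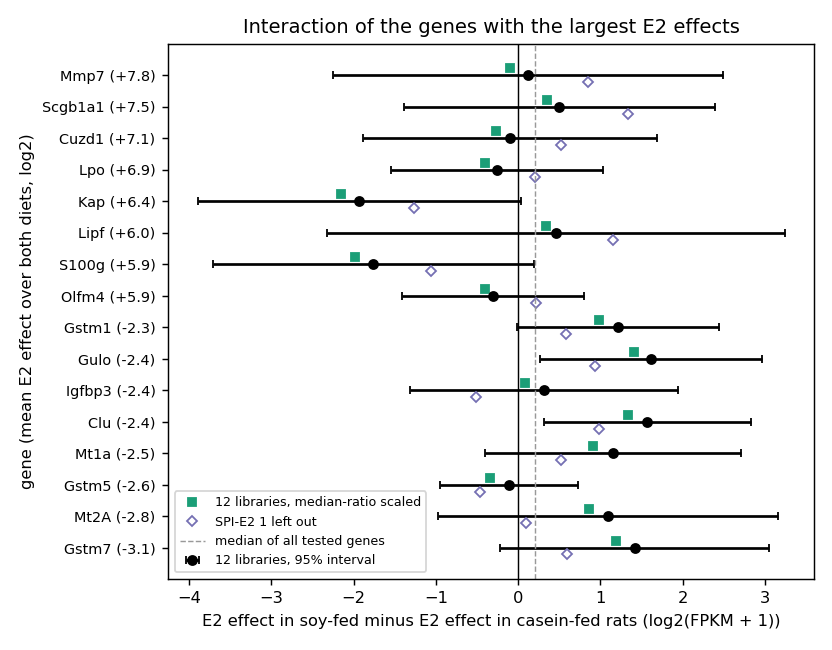
Interaction of the 16 genes with the largest E2 effects over both diets (8 rises, 8 falls), in log2(FPKM + 1) units, with 95% intervals from all 12 libraries, after median-ratio scaling (squares) and without SPI-E2 1 (diamonds). The intervals of 14 genes include 0; those of Clu and Gulo start at 0.31 and 0.26, and no gene passed the adjusted threshold.

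Receptors and their partner factors were the next question, since they transmit the hormone signal. The list held 10 tested members. An unadjusted p under 0.05 was found in 3 of them (Esr1, Foxa2 and Gata2), all with a higher interaction, and in 2 after scaling. Of all genes, 13.3% were higher at that p on the deposited scale. The list's median was 0.34, or 0.14 scaled. On casein 3 members fell, against 6.37% of all genes, and none rose. On soy none passed, where 1.86% of all genes fell. Esr1, encoding estrogen receptor alpha, measured 39.2, 39.9 and 40.7 FPKM in CAS and 19.3, 21.6 and 12.7 in CAS-E2. In SPI it measured 29.0, 32.5 and 24.5, and in SPI-E2 31.4, 25.5 and 15.0. The groups with and without E2 were apart on casein and overlapped on soy. The interaction was 0.85 (0.08 to 1.63, adjusted p = 0.29), 0.62 scaled and 0.64 without SPI-E2 1. The rn4 tables hold Esr1 on chromosome 1 and also on unplaced chromosome 1 sequence, and the value is the sum of both entries.

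Pgr, the progesterone receptor, did not pass the test for E2 in either diet, and its interaction was 0.20 (-0.69 to 1.09), or -0.03 scaled. Ahr, the aryl hydrocarbon receptor that senses planar aromatic compounds, had an interaction of 0.45 (-0.15 to 1.04). Gper, the membrane estrogen receptor, had one of 0.46 at an unadjusted p of 0.26. Esr2, encoding estrogen receptor beta, was below the filter, at 0 to 0.201 FPKM in all libraries.

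Foxa2 had one of the 5 smallest adjusted p values of the interaction (0.0693). It encodes a forkhead factor of the glandular epithelium that is needed for uterine gland formation (rn4 chr3:136739009-136743204). Its FPKM was 8.55, 8.18 and 10.9 in CAS and 2.12, 1.52 and 2.42 in CAS-E2. On soy it was 3.99, 4.38 and 4.11 without E2 and 3.42, 3.93 and 3.18 with it. SPI lay below every CAS library, while SPI-E2 lay above every CAS-E2 library, so that the soy groups sat between the casein groups. Foxa2 fell by 1.76 log2 units on casein (adjusted p = 4.5e-05) and the effect on soy was -0.20. The interaction was 1.56 ± 0.21 (SE), 1.35 scaled and 1.57 without SPI-E2 1, where its adjusted p was 0.0193; with both changes the adjusted p was 0.0569.

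Gata2, a zinc finger factor that acts upstream of the progesterone receptor in uterine epithelium, had the same layout. It measured 31.6, 33.2 and 37.6 FPKM in CAS, 8.24, 8.66 and 9.6 in CAS-E2, 21.3, 21.6 and 22.7 in SPI, and 21.6, 15.2 and 13.1 in SPI-E2. The interaction was 1.43 ± 0.24 (adjusted p = 0.106), and 1.24 without SPI-E2 1 (adjusted p = 0.0193); with scaling as well the adjusted p was 0.0689.

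**Figure D4:**
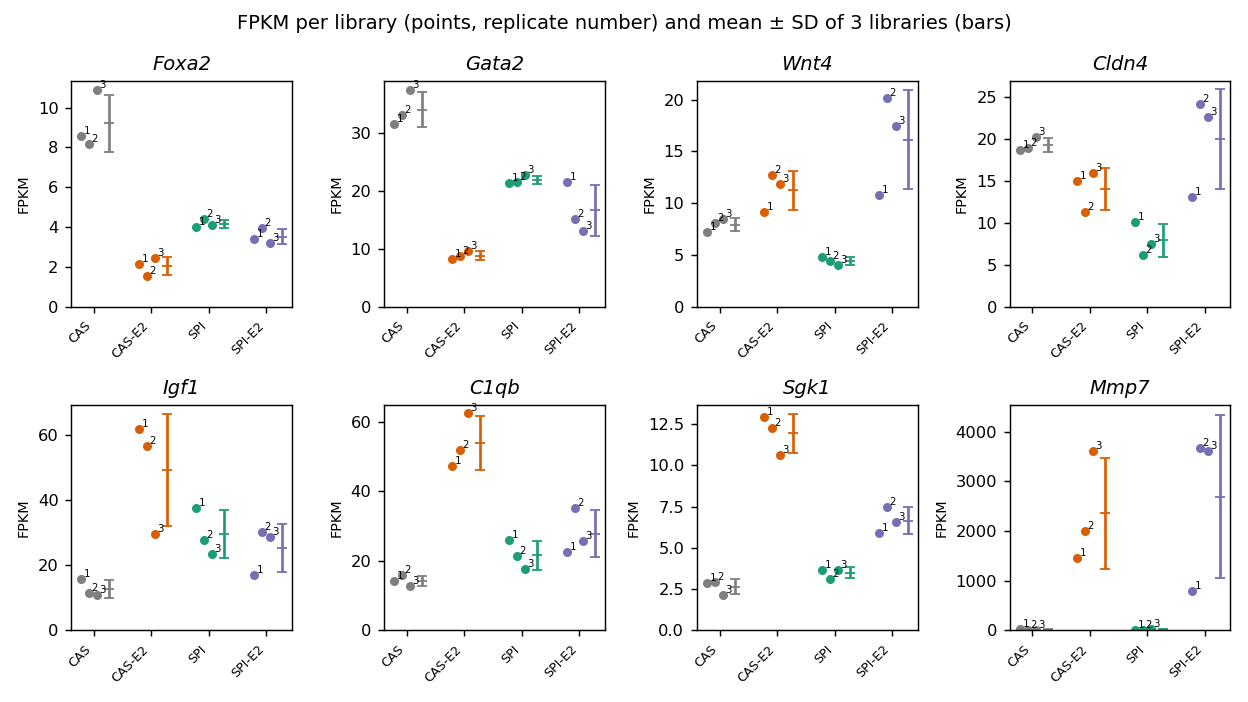
FPKM of 8 genes in each library (points with the replicate number) and mean ± SD of 3 libraries (bars), by group, on linear axes from 0. For Foxa2 and Gata2 the casein groups are further apart than the soy groups, for Igf1, C1qb and Sgk1 the high group is CAS-E2, for Wnt4 and Cldn4 the lowest group is SPI, and Mmp7 is induced in both diets.

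Among 21 tested estrogen-regulated uterine genes, 12 rose and 3 fell on casein, and 13 rose and 1 fell on soy. Of all genes, 7.99% rose and 6.37% fell on casein, and 8.39% rose and 1.86% fell on soy. The median interaction of the 21 was -0.15 (-0.33 scaled), which turned to 0.26 without SPI-E2 1. At an unadjusted p under 0.05, 6 had a higher and 2 a lower interaction, against 13.3% and 1.63% of all genes, and 4 and 4 after scaling. Lif, the cytokine required for implantation, had effects of 2.89 and 2.58 on casein and soy. Oxt, encoding oxytocin, had effects of 5.55 and 5.68. Fos, an immediate early gene, had effects of 2.70 and 2.51, so these 3 rose in both diets with interactions between -0.32 and 0.14.

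The member that departed most was Igf1, insulin-like growth factor 1, a stromal mitogen that relays E2 to the epithelium (rn4 chr7:24531669-24605742). Its FPKM was 15.7, 11.3 and 10.9 in CAS and 61.6, 56.4 and 29.6 in CAS-E2. It was 37.6, 27.6 and 23.4 in SPI and 17.0, 30.2 and 28.5 in SPI-E2. The casein groups did not overlap, the soy groups did, and all SPI libraries lay above all CAS libraries. Igf1 rose on casein by 1.83 log2 units (adjusted p = 0.0011), while the effect on soy was -0.23. The interaction was -2.06 ± 0.42 (adjusted p = 0.141), -2.29 scaled and -1.81 without SPI-E2 1 (adjusted p = 0.0554). With the library left out and the rest scaled, it was called at an adjusted p of 0.0494.

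Gja1, the gap junction protein connexin 43, rose by 2.38 log2 units on casein and 1.18 on soy, with an interaction of -1.20 (adjusted p = 0.188). Oxtr, the oxytocin receptor, rose on casein by 2.26 with an effect on soy of 0.73. Muc1, a luminal mucin, had the opposite tilt, with 0.94 on casein and 2.22 on soy. C3, a well-known estrogen target of rat uterus, was listed at 0 in all 12 libraries, and no statement on it can be made.

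Growth factors and their binding proteins had a median interaction of 0.20, -0.01 scaled and 0.02 without SPI-E2 1. At an unadjusted p under 0.05, 3 of 24 were higher, a share near the 13.3% of all genes, and 2 lower; after scaling it was 1 and 3. Erbb2, a receptor tyrosine kinase of the EGF family, measured 6.97 to 8.0 FPKM in CAS and 4.41 to 6.55 in CAS-E2, but 4.71 to 5.03 in SPI and 5.55 to 7.98 in SPI-E2. On the deposited scale all treated libraries were below the untreated ones on casein and above them on soy. After median-ratio scaling CAS and CAS-E2 overlapped. Neither arm reached 2-fold, and the interaction was 0.87 (adjusted p = 0.182). The layout on the deposited scale, CAS-E2 wholly below CAS and SPI-E2 wholly above SPI, was found in 131 genes (1.27%). The reverse was found in 3 genes (0.0292%), Cyp4f18, Map4k1 and Senp8, which were chosen for naming after their values were seen. After scaling the counts were 41 and 20.

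Hedgehog signaling carries messages from epithelium to stroma: Ihh is the epithelial ligand, Ptch1 its receptor and target, and Hand2 a stromal factor. Of 12 tested members, 7 fell on casein and 2 on soy, against 6.37% and 1.86% of all genes. Of the 12, 11 had an interaction above 0, as did 7244 of all 10279 genes. After scaling 10 of the 12 were above 0, against 5298 of all genes. The median interaction was 0.51, or 0.34 scaled and 0.21 without SPI-E2 1. Ptch1 measured 7.80, 8.98 and 9.67 FPKM in CAS and 1.88, 1.41 and 1.22 in CAS-E2, against 4.37, 6.84 and 4.99 in SPI and 4.31, 1.61 and 1.52 in SPI-E2. Only SPI-E2 1 stayed near the untreated soy libraries, and the interaction of 1.02 went to 0.67 without it. Hand2 had an interaction of 0.68, and 0.51 without that library.

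Of all genes, 6.37% fell and 7.99% rose on casein, and 1.86% fell and 8.39% rose on soy. Wnt signaling showed 10 of 25 tested members falling and 1 rising on casein, against 5 and 3 on soy. At an unadjusted p under 0.05, 7 had a higher and none a lower interaction (median 0.38, 0.22 scaled), against 13.3% and 1.63% of all genes. After scaling 5 were higher and 0 lower, against 580 and 487 of all 10279 genes. Wnt4, a ligand needed for uterine development and decidualization, measured 7.20, 8.04 and 8.43 FPKM in CAS and 9.14, 12.7 and 11.8 in CAS-E2 (rn4 chr5:156064371-156083198). On soy it measured 4.83, 4.37 and 4.0 without E2 and 10.8, 20.2 and 17.4 with it. SPI was the lowest group, below every CAS library, and Wnt4 rose on soy by 1.63 log2 units, with 0.45 on casein. The interaction was 1.18 ± 0.29 (adjusted p = 0.175), 0.97 scaled and 1.42 without SPI-E2 1 (adjusted p = 0.0193).

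Wnt7a, the epithelial ligand that patterns the uterus, had an interaction of 1.19 (0.42 to 1.95). It measured 15.9, 17.4 and 16.7 FPKM in CAS, 5.56, 6.35 and 13.1 in CAS-E2, and 9.02 to 14.8 in all soy libraries. The stem cell marker Lgr5 fell in both diets, by 2.82 log2 units on casein and 1.52 on soy. The secreted Wnt antagonist Sfrp2 also fell in both, by 2.97 and 1.35.

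Cell cycle and DNA replication genes rose in both diets where they were called, 4 of 17 on casein and 5 on soy. The shares of all genes that rose were 7.99% and 8.39%. For the 17 the median interaction was 0.18 (0.01 scaled), and 11 of 17 intervals lay within 2-fold. Mcm7, a subunit of the replicative helicase, measured 10.3 to 11.6 FPKM in CAS and 5.86 to 6.59 in CAS-E2, against 7.30 to 9.56 in SPI and 8.02 to 8.67 in SPI-E2, with an interaction of 0.68 (adjusted p = 0.182). Mcm2, another subunit, had one of 0.50. Cholesterol and fatty acid synthesis, which supplies growing membranes, had 6 of 23 members rising and none falling on casein. On soy 8 rose and 2 fell, where 8.39% of all genes rose and 1.86% fell. None of the 23 had an unadjusted p under 0.05 for the interaction. The list's median was 0.11 (-0.11 scaled), with Srebf2, the regulator of sterol synthesis, at 0.47 and Scd, a fatty acid desaturase, at 0.55.

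Immune lists were among those with a median interaction below 0 in the 12 libraries. Complement, the soluble cascade that tags and lyses targets, had 10 of 17 tested members rising on casein and 5 on soy. For this and the other lists here, 7.99% of all genes rose on casein and 8.39% on soy. Of the 17, 15 had an interaction below 0, 16 after scaling, with a median of -0.72 (-0.87 scaled) and -0.57 without SPI-E2 1. Of all 10279 genes, 3035 were below 0, and 4981 after scaling. At an unadjusted p under 0.05, 3 complement genes were lower and none higher. Among all genes, the background for each list here, 1.63% were lower and 13.3% higher. Interferon-induced genes, the antiviral program, had a median of -0.43 (-0.62 scaled), and -0.27 without SPI-E2 1, with 4 of 24 lower and none higher; 7 rose on casein and 4 on soy. Antigen presentation had a median of -0.22 (-0.43 scaled) that turned to 0.04 without SPI-E2 1. Of its 21 members, 14 rose on casein and 8 on soy, and 12 had an interaction below 0, 5 lower against 1 higher at an unadjusted p under 0.05.

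C1qb, a chain of the first complement component made mainly by macrophages, measured 14.2, 15.8 and 12.8 FPKM in CAS and 47.3, 51.9 and 62.4 in CAS-E2 (rn4 chr5:155647523-155653072). On soy it measured 25.9, 21.3 and 17.5 without E2 and 22.4, 35.3 and 25.8 with it. The casein groups were far apart, the soy groups overlapped, and every SPI library lay above every CAS library. C1qb rose on casein by 1.84 log2 units (adjusted p = 0.00013), with 0.35 on soy. The interaction was -1.50 ± 0.28 (adjusted p = 0.115), and -1.36 without SPI-E2 1 (adjusted p = 0.0425).

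Cd74, the invariant chain that escorts class II antigen receptors, measured 132, 112 and 81.6 FPKM in CAS, 375, 375 and 301 in CAS-E2, 145, 136 and 129 in SPI, and 153, 240 and 137 in SPI-E2. Its interaction was -1.37 (adjusted p = 0.175). The class II alpha chain RT1-Ba had an interaction of -1.41 (-2.09 to -0.72). Cfp, properdin, had one of -0.78, and the interferon-induced genes Gbp2 and Ifit2 had -0.68 and -0.58. The class I genes RT1-A2 and RT1-CE5 had interactions of 0.77 and 0.72, and both rose in both diets. The RT1 genes are close copies of each other, as are the Gstm genes, and reads of 36 bases may be split between them uncertainly.

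Macrophage markers are set beside these genes. Cd68, a macrophage lysosomal protein, rose by 2.17 log2 units on casein and 1.37 on soy. All 3 tested markers had interactions below 0 (median -0.65, -0.86 scaled). None of the 3 had an unadjusted p under 0.05 for the interaction, and 2 were lower at that p after scaling. The summed FPKM of 4 listed macrophage markers, 1 of them at 0 in each group, was 12.7 to 16.3 in CAS and 31.9 to 60.5 in CAS-E2, against 14 to 18.3 in SPI and 26.8 to 38.8 in SPI-E2. Their part in the immune results was not tested. In whole-uterus RNA, fewer cells of a type and less RNA per cell cannot be told apart.

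Sodium and water transport underlies the fluid uptake that E2 causes. Of 16 tested members, 7 rose and 3 fell on casein, against 7.99% and 6.37% of all genes. On soy 6 rose, against 8.39% of all genes. Sgk1, a kinase that keeps epithelial sodium channels at the membrane, measured 2.89, 2.90 and 2.11 FPKM in CAS and 13.0, 12.3 and 10.7 in CAS-E2, against 3.67, 3.10 and 3.67 in SPI and 5.88, 7.5 and 6.57 in SPI-E2. Treated and untreated libraries were apart in both diets, and CAS-E2 lay above SPI-E2 throughout. The E2 effect was 1.84 on casein and 0.77 on soy, with an interaction of -1.07 ± 0.20 (adjusted p = 0.115), and -1.0 without SPI-E2 1 (adjusted p = 0.0476). Aqp5, a water channel of secretory epithelium, had the opposite sign: 26.8 to 31.7 FPKM in CAS fell to 1.13, 2.71 and 6.68 in CAS-E2, while SPI measured 15.3 to 20.7 and SPI-E2 20.0, 7.54 and 5.15. Its interaction was 2.00 (0.59 to 3.42), and 1.49 without SPI-E2 1.

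Enzymes that handle foreign compounds and steroids had 3 of 23 members higher and 1 lower at an unadjusted p under 0.05, near the 13.3% and 1.63% of all genes, with a median of 0.36 (0.15 scaled). Ugt2b10, listed as a glucuronosyltransferase, measured 6.07, 5.98 and 7.10 FPKM in CAS and 0.157 to 0.739 in CAS-E2, against 0.740 to 1.70 in SPI and 0.221 to 0.966 in SPI-E2. It was high only in CAS, and its interaction was 1.83 ± 0.31 (adjusted p = 0.11), or 1.64 without SPI-E2 1 (adjusted p = 0.0355). With scaling as well the adjusted p was 0.0843. Outside CAS only SPI 1 (1.70) and SPI 2 (1.13) reached 1 FPKM, so Ugt2b10 passed the filter only with the CAS libraries. Its p values thus rest on the group that admitted it, and they are given as a description. Nqo1, a quinone reductase, measured 5.60, 6.72 and 7.76 in CAS-E2 and 13.1, 12.5 and 24.1 in SPI-E2, from 3.07 to 4.41 in both untreated groups. It rose on soy by 1.82 log2 units, with 0.69 on casein and an interaction of 1.13 (adjusted p = 0.19).

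Metallothioneins and oxidative stress genes had 7 of 18 members rising and 2 falling on casein, and 9 rising and 3 falling on soy. Of all genes, 7.99% rose and 6.37% fell on casein, and 8.39% rose and 1.86% fell on soy. The list's median interaction was 0.27 (0.08 scaled). Gsr, glutathione reductase, had an interaction of 0.76 and Gpx3, a secreted peroxidase, one of -1.27. Heat shock and unfolded protein response genes had the tightest result, with 14 of 19 intervals within 2-fold and a median of 0.07 (-0.17 scaled). Hspa1a, an inducible chaperone, was at 1.03, and Hsp90aa1, another chaperone, at -0.63. Immediate early genes had a median of 0.30 (0.09 scaled), with Myc, a growth regulator, at 0.72 and Ier2 at 0.66.

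Prostaglandin synthesis and receptors had a median of 0.35 (0.17 scaled). Ptger4, a receptor for prostaglandin E2, measured 3.72 to 3.92 FPKM in CAS and 3.6 to 5.09 in CAS-E2, but 2.36 to 3.06 in SPI and 5.49 to 6.64 in SPI-E2, with an interaction of 0.80 (adjusted p = 0.18). PPAR pathway and lipid handling genes had a median of 0.05 (-0.11 scaled). Ppara, the fatty acid receptor, was at 0.52 and Acadm, an enzyme of fatty acid oxidation, at 0.90.

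**Figure D5:**
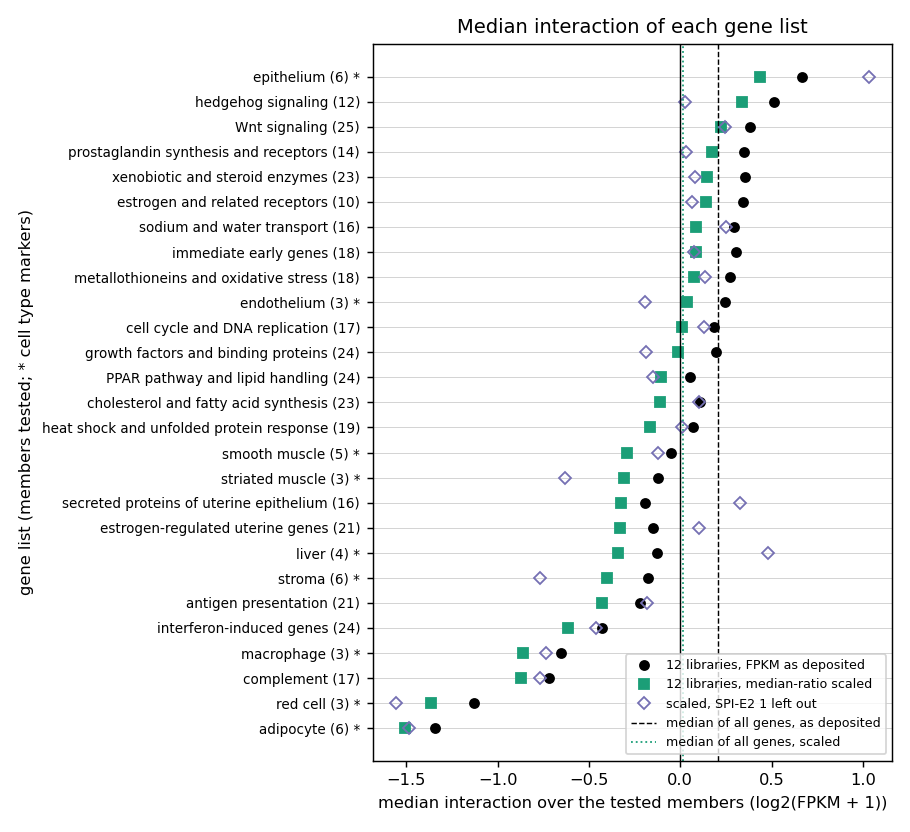
Median interaction over the tested members of 27 gene lists, in log2(FPKM + 1) units, for deposited FPKM (circles), after median-ratio scaling (squares) and after scaling without SPI-E2 1 (diamonds); vertical lines mark the medians of all 10279 genes (0.21 and 0.01), and asterisks mark cell type markers. Epithelial markers lie highest, adipocyte and red cell markers lowest, and complement is the lowest functional list.

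Markers of the cell types in the tissue also differed. All 6 epithelial markers had an interaction above 0 (median 0.67, 0.44 scaled), and 1.27 without SPI-E2 1. Their summed FPKM was 190 to 217 in CAS and 809 to 1389 in CAS-E2, against 121 to 154 in SPI and 480, 1663 and 1676 in SPI-E2 1 to 3. Cldn4, a tight junction protein of epithelium, measured 18.6, 18.9 and 20.2 FPKM in CAS, 14.9, 11.2 and 15.9 in CAS-E2, 10.1, 6.19 and 7.52 in SPI, and 13.1, 24.1 and 22.6 in SPI-E2. On the deposited scale all treated libraries were below the untreated ones on casein and above them on soy. After median-ratio scaling CAS and CAS-E2 overlapped. Cldn4 rose on soy by 1.21 log2 units, with -0.44 on casein and an interaction of 1.65 ± 0.32 (adjusted p = 0.135), or 1.92 without SPI-E2 1 (adjusted p = 0.0193). The part of the epithelial markers in the values of Foxa2, Wnt4, Wnt7a or Aqp5, which are expressed in epithelium, was not tested.

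Stromal markers had a median of -0.17 (-0.40 scaled), with Col1a1 and Col3a1, the fibrillar collagens, at -0.42 and -0.80. Smooth muscle markers had one of -0.05 (-0.29 scaled), with Cnn1 at 0.35 and Tagln at 0.37. Endothelial markers had one of 0.24 (0.04 scaled), with Tek at 0.24 and Cdh5 at 0.33, which turned to -0.08 without SPI-E2 1. None of these 14 markers had an unadjusted p under 0.05.

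Markers of tissue around or within the dissected uterus varied between libraries of a group. All 6 adipocyte markers had an interaction below 0 (median -1.34), and their summed FPKM ran from 93.3 to 564 in SPI and from 106 to 571 in CAS-E2. Plin1, which coats fat droplets, was at -1.57 and Lep, leptin, at -1.15. The 3 red cell markers had a median of -1.13, with Hba-a2 and Hbb at -1.13 and -1.23. Liver markers summed to 1402 FPKM in SPI 1 and to 11.4 to 241 in the other libraries, with Ttr at -0.12, which turned to 0.68 without SPI-E2 1, and Fgb at -0.52. Striated muscle markers had a median of -0.12, with Acta1 at 0.30 and Mylpf at -0.72. None of these had an adjusted p under 0.05 for the interaction.

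The largest estimates among genes with an unadjusted p under 0.05 and a group mean of at least 5 FPKM were partly entries of short or non-coding RNA. Mir22 (7.67) and Mir3596c (4.94) are entries of 95 and 117 bases, and the libraries were made from poly-A RNA; Mir22 measured 0 to 80.0 FPKM in CAS, 0 in CAS-E2, 0 to 66.9 in SPI and 68.6, 523 and 148 in SPI-E2. Snhg4, a small nucleolar RNA host gene, had -2.88 and was at 0 in 2 CAS libraries. The values are given as listed. Mln, the peptide motilin, measured 4.15, 3.13 and 9.72 FPKM in CAS and was listed at 0 in the other 9 libraries, which gave an interaction of 2.61 (adjusted p = 0.0693). Mln passed the filter through CAS alone, so that it had to differ, and its p rests on the group that admitted it; it is given as a description, and no fold can be given against groups at 0.

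Rmrp, the RNA of the mitochondrial RNA-processing ribonuclease, measured 31.5, 41.8 and 44.8 FPKM in CAS, 9.80, 13.6 and 13.9 in CAS-E2, 20.1, 20.8 and 10.3 in SPI, and 23.7, 34.8 and 38.8 in SPI-E2. It fell on casein by 1.59 log2 units, the effect on soy was 0.92, and the interaction was 2.51 ± 0.39 (adjusted p = 0.0693). Rmrp is a non-coding entry of 257 bases, and here too the libraries were made from poly-A RNA. The FXYD proteins adjust the sodium pump. Fxyd7 had an interaction of 2.54 (adjusted p = 0.125) and Fxyd2 one of -2.38 (adjusted p = 0.227). LOC500035 had one of 2.26, and the immune genes Ccl6 and RT1-Bb had -2.18 and -3.21. Pla2g2a, a secreted phospholipase, measured 29.4, 15.1 and 4.04 FPKM in SPI and 0.785 to 3.50 in all other libraries, with an interaction of -2.11.

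The other 2 genes at the smallest adjusted p of 0.0693, Brf2 and Wbscr27, were chosen for naming after their values were seen. Brf2, a subunit of an RNA polymerase III initiation factor, measured 4.17, 4.14 and 4.70 FPKM in CAS, 1.84, 2.93 and 1.97 in CAS-E2, 2.24, 2.17 and 2.14 in SPI, and 3.37, 4.51 and 4.25 in SPI-E2. Wbscr27 measured 6.49 to 8.33, 3.42 to 4.11, 3.38 to 4.0 and 4.94 to 7.35 in the same groups. In both genes the CAS and SPI-E2 libraries were high and the CAS-E2 and SPI libraries low, with no overlap between E2 and vehicle in either diet. Their interactions were 1.38 and 1.40.

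Without SPI-E2 1, 104 genes had a called higher interaction (1.01%) and 8 a called lower one (0.0778%). All 112 had the same sign with 12 libraries, and 89 had an unadjusted p under 0.05 there. Of the 104, 59 had an upward E2 effect in both diets in the 12 libraries, and 45 a downward one on casein, 34 of which had an upward one on soy. With scaling as well, 18 were higher and 11 lower, and 25 genes were called in both settings, 18 higher and 7 lower.

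Examples from these calls were chosen after their values were seen. Fam84a measured 1.68, 1.90 and 1.30 FPKM in CAS and 14.3, 15.9 and 16.3 in CAS-E2, against 0.524, 0.538 and 0.706 in SPI and 8.94, 32.5 and 30.9 in SPI-E2. The 2 retained SPI-E2 libraries were above every CAS-E2 library, SPI-E2 1 was below them, and the interaction was 1.71 without it (adjusted p = 0.00841) and 1.14 with it (adjusted p = 0.318). Tmem30b, a subunit of lipid flippases, had 1.43 without and 1.02 with the library. Lbp, which binds bacterial lipopolysaccharide, measured 11.4, 10.5 and 12.2 FPKM in CAS-E2 and 16.1, 36.2 and 59.1 in SPI-E2, and rose in both diets.

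On the lower side, Fcer1g, an adaptor chain of Fc receptors on myeloid cells, measured 83.7, 81.1 and 89.0 FPKM in CAS-E2 and 36, 44.7 and 28.0 in SPI-E2, from 15.4 to 30.9 in CAS and 30.5 to 36.1 in SPI. Its interaction was -1.83 with all libraries (adjusted p = 0.11) and -1.84 without SPI-E2 1 (adjusted p = 0.0421). Pla2g7, a phospholipase secreted by macrophages that degrades platelet-activating factor, measured 8.42, 10.4 and 7.61 FPKM in CAS-E2 and 3.70, 3.47 and 3.06 in SPI-E2. Its interaction was -1.55 with all libraries (adjusted p = 0.11) and -1.59 without SPI-E2 1 (adjusted p = 0.0355).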

How the data were processed

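RNA was measured in 12 libraries of whole rat uterus, 4 groups of 3 pools. The labels give CASAVA 1.7, Bowtie2 2.1.0, TopHat2 2.0.9 and Cufflinks 2.1.1 among the submitters' processing tools, and rn4 as the build. The authors deposited Cufflinks FPKM values per transcript, a normalized unit and not counts. FPKM of all transcripts of a symbol were summed (16493 symbols, 113 of them with entries on more than 1 chromosome or unplaced sequence). Depth was read from the ratio of the deposited coverage to FPKM; it is an estimate, and no reads were counted. Because FPKM are relative to each library's total, a few abundant genes that change can shift all others, and the tables were also divided by median-ratio size factors.

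Genes with at least 1 FPKM in at least 3 libraries were fitted on log2(FPKM + 1) with limma 3.58.1 (R 4.3.3, mean-variance trend, 4 group means), with Benjamini-Hochberg adjustment over all 10279 genes. Interactions were called at an adjusted p under 0.05, and E2 effects at that threshold with a 2-fold change. Intervals are 95% moderated intervals. Tables were prepared with Python 3.11.15 and pandas 2.3.3, and plots with matplotlib 3.10.9. The fit was also run on simulated data, whose outcome is not given here and is no support for the calls.

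Alternatives were other pseudocounts (0.1 and 0.5), filters, scaling, moderation, array weights, a replicate block and leaving out each library. Replicate numbers are shared by the groups. Deviations of same-numbered CAS-E2 and SPI-E2 libraries from their group means correlated at 0.27, 0.12 and 0.34, whereas the other group pairs gave -0.26 to 0.15. The value of 0.12, for replicate 2, lay within the range of the other pairs. Whether the numbers paired the E2-treated groups is thus not settled, and the labels do not say.

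The 27 gene lists and the genes named were chosen with earlier results of these data known. Named were the 6 largest positive and 6 largest negative interactions with an unadjusted p under 0.05 and a group mean of at least 5 FPKM. Also named were the 8 largest rises and falls over both diets without overlap, the 2 members of each list with the smallest p, the receptors and Ahr, and any called interaction (none with 12 libraries). Genes described outside these rules include Lif, Oxt, Fos, Gja1, Oxtr, Muc1, Lgr5, Sfrp2, RT1-A2, RT1-CE5 and Gper. The counts over the 80 named genes do not cover them.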

Additional observations from a re-analysis of the deposited data

Results flagged for a closer look

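In 4 of the 80 genes named by rule all 3 CAS-E2 libraries lay below all CAS libraries on the deposited scale. In these genes all 3 SPI-E2 libraries lay above all SPI libraries. Every treated library thus moved one way on casein and the other way on soy before scaling. Of all 10279 tested genes, 131 (1.27%) had this layout, and 41 after median-ratio scaling. The 4 genes were named for a large interaction or a small interaction p, so the choice itself favored the layout. The difference was tested as the interaction and did not pass the adjusted threshold for any of them with 12 libraries. The interaction was 1.65 for Cldn4 (adjusted p = 0.135), 0.87 for Erbb2 (adjusted p = 0.182), 2.26 for LOC500035 (adjusted p = 0.183) and 2.51 for Rmrp (adjusted p = 0.0693). Brf2 and Wbscr27, named after their values were seen, had the same layout. After median-ratio scaling the interactions of Cldn4, Erbb2, LOC500035 and Rmrp were 1.43, 0.66, 2.05 and 2.28. With that scaling CAS and CAS-E2 overlapped in Cldn4, Erbb2 and LOC500035, so these lost the layout, and Rmrp kept it.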

How the results depend on the processing

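Groups of 3 libraries, pools of 2 uteri and intervals reaching a median of 0.60 to either side limit what could be called, and values near 0 in genes of few reads rest on the added 1.

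No interaction was called under any alternative except 5. The count was 362 with array weights (311 higher, 51 lower), which gave SPI-E2 1 a weight of 0.21 and CAS 2 one of 5.32. Leaving out 1 library gave 0 to 112 genes: 112 without SPI-E2 1, and 1 each without CAS 2 and without CAS 3, in both cases Mln, which passed the filter through CAS alone. Leaving out SPI-E2 1 with median-ratio scaling gave 29. At an unadjusted p under 0.05, the count of 1530 among 10279 genes became 1009 among the 6164 genes left with at least 5 FPKM required. Over all 10279 genes it was 2462 with array weights and 2342 with the replicate block over the E2 libraries. With that block none passed the adjusted threshold and the smallest adjusted p was 0.057. The block over all 12 libraries also called none, and neither block moved another count by over 1.5 times.

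E2 calls over both diets numbered 1915 with a pseudocount of 0.1, against 1144. E2 calls on soy numbered 1053, and 673 to 1740 when 1 library was left out (673 without SPI-E2 2, 1740 without SPI-E2 1), or 1671 without SPI-E2 1 and scaled. For the signed median, the E2 genes were chosen anew in each setting. It was -0.12, with a range of -0.318 to 0.229 over single libraries left out (0.23 without SPI-E2 1). The sign was also positive with array weights (0.027) and without SPI-E2 1 after scaling (0.16). The cause was not tested.

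Of 80 named genes, 23 passed the adjusted threshold under at least 1 of 25 alternatives and 16 changed sign under at least 1; none passed with all 12 libraries, equal weights and any scaling, pseudocount, filter, moderation or block.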
